A study of Mus musculus with 15 samples.

Results

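The STAT transcription factors Stat2, Stat3, Stat4, Stat5a, Stat5b and Stat6 were followed through RNA-seq libraries of mouse small cell lung cancer cell lines. The 6 genes were taken by name from the gene column of both deposited count tables, which hold 53689 and 53618 named rows, and each gene had a row in both. The lines were grown from tumour tissue in culture and sequenced in bulk. RPM lines carry the genotype Rb1-/-, Trp53-/- and MYC, and RPMS lines carry the same alleles together with STAT3-/-. Loss of Rb1 and Trp53 and the MYC allele are therefore shared by every library, and in the labelled genotype only STAT3-/- separates RPM from RPMS. The lines also differ in cell make-up, as given below, so RPMS against RPM does not isolate the loss of Stat3. The first table, called set 1 here, holds 4 RPM lines from lung, numbered CMV_426 to CMV_429, and 3 RPMS lines from lung, which are CMV_228, CMV_231 and CMV_252. The other table, set 2, has the same 3 RPMS lung lines again with CMV_232 added, and 4 RPMS lines derived from the liver (CMV_273, CMV_341, CMV_343 and CMV_344). The labels give every library the cell type lung epithelium and do not say whether each line is a clone, which promoter drove MYC or the deletions, or how old the mice were. Nothing in them states that lines of a group came from separate animals, so p-values measure the spread between these lines.

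STAT proteins carry signals from cytokine receptors to the nucleus. A ligand brings receptor chains together, the attached Janus kinases phosphorylate the receptor and then the STAT, and the STAT pairs through its SH2 domain, enters the nucleus and binds DNA. Stat3 is the main carrier of signals from the IL-6 family, Stat2 joins with Irf9 in the complex that answers type I interferon, Stat4 answers IL-12, Stat6 answers IL-4 and IL-13, and Stat5a and Stat5b are close relatives that answer growth hormone, prolactin and IL-2 family cytokines. Most STAT dimers bind palindromes with the arms TTC and GAA, known as GAS sites, while the Stat2 complex binds the interferon-stimulated response element, or ISRE. The series title sets Stat3 beside interferon signalling and metastatic spread. The comparisons below ask whether the other STAT genes differ where Stat3 is lost.

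RefSeq promoter windows (assembly GRCm38.p6, 250 bases before to 50 bases after the transcript start) were found for all 6 genes, 9 windows in all. The windows of the 2 genes that passed the test below, Stat3 and Stat6, are shown with that of Stat2, whose interval stood closest to the call. Each is printed 5′ to 3′ on the gene's own strand, and capitals mark matches on either strand to TTCNNNGAA, TTCNNNNGAA or GAAANNGAAA, the last a simple form of the ISRE.
Stat2, chr10:128270248-128270547, plus strand: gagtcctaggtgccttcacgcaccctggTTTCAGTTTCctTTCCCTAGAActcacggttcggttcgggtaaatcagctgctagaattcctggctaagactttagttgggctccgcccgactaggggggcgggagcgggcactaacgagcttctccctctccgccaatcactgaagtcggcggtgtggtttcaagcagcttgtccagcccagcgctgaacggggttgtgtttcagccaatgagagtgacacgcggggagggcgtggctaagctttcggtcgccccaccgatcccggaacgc
Stat3, chr11:100939491-100939790, minus strand: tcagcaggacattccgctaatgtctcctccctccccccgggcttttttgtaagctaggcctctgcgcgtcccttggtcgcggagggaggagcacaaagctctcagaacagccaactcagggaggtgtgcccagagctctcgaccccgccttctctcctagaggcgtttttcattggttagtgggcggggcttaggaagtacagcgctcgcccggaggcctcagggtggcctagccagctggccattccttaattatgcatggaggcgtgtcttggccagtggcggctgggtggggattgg
Stat6, chr10:127642736-127643035, plus strand: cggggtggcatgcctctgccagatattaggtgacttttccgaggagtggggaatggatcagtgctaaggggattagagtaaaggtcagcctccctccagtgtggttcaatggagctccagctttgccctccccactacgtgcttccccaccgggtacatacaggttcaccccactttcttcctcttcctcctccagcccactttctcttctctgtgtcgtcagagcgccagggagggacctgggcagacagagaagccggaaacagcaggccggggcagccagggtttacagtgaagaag
The Stat2 window held an ISRE-type match beginning 222 bases before the start and a TTCNNNNGAA match beginning 210 bases before it. The only other match among the 9 windows was an ISRE-type one in a window of Stat4, 97 bases before its start. Over 32851 RefSeq mouse promoters, 8.30% held TTCNNNGAA, 6.95% held TTCNNNNGAA and 3.44% held GAAANNGAAA. A match is a run of letters and does not show binding, and a window without a match says nothing of the factor.

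Before the results, 3 features of the libraries have to be known. Set 1 libraries held 25344949 to 31345631 counts each, and set 2 libraries 9453715 to 18451248. The RPM lines carried macrophage and other leukocyte genes: the summed level of 18 leukocyte markers was 3846 to 17041 CPM in RPM lines (CPM being the deposited counts relative to a library size scaled by TMM). In RPMS lines of set 1 it was 6.39 to 125 CPM, and there 12 to 14 of the 18 had 0 counts. RPM lines expressed Ptprc, the pan-leukocyte CD45, at 168 to 548 CPM, and no RPMS line of set 1 had a count. Csf1r, the macrophage growth factor receptor, reached 368 to 1624 CPM in the RPM lines but no more than 0.121 CPM in the RPMS lines. The 12 neuroendocrine markers summed to 25.2 to 81.4 CPM in the RPM lines against 1187 to 4621 CPM in the RPMS lines, so the labelled RPM lines held little of the neuroendocrine transcripts typical of small cell lung cancer. Fibroblast markers (8 genes) summed to 21.7 to 663 CPM in the RPM lines against 4.05 to 8.55 CPM, endothelial markers (5 genes) to 18.3 to 342 CPM against 0.737 to 14.6 CPM, and lymphocyte markers (14 genes) to 4.61 to 20.9 CPM against 0.0952 to 0.461 CPM. Epithelial markers (8 genes) overlapped between the groups, at 57.0 to 772 CPM and 152 to 608 CPM. The 6 hepatocyte markers gave 41.1 to 223 CPM against 2.83 to 30.9 CPM in set 1. Trf made most of that sum in RPM lines, with a mean of 126 CPM, while Alb and Ttr had 0 counts there. Tat went the other way, with a mean of 0.0401 CPM in RPM and 10.4 CPM in RPMS lines. In set 2 the leukocyte sum was 5.91 to 16.9 CPM in all 8 libraries. In the neuroendocrine sum the libraries labelled CMV_252 stood below the other RPMS lung lines in both tables. Their neuroendocrine sums, 1187 CPM in set 1 and 165 CPM in set 2, also differed from each other. Their leukocyte sum was 125 CPM in set 1, of which Lyz2 made 124 CPM. In set 2 it was 8.37 CPM, close to the 10.7 to 16.9 CPM of the other lung lines. The fold changes of the tested members are therefore also given without CMV_252, while the separate list counts rest on all libraries.

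The Stat3 transcript was lower in every line labelled STAT3-/- than in any RPM line. The deletion and the cell make-up of the RPM lines, given above, both differ between these groups and cannot be told apart in this contrast. Stat3, the IL-6 family transducer, stood at 179, 195, 160 and 209 CPM in CMV_426 to CMV_429 and at 16.3, 19.0 and 7.83 CPM in the RPMS lines CMV_228, CMV_231 and CMV_252. The lowest RPM value was far above the highest RPMS value. The RPM mean was 186 ± 21.1 CPM (SD, n = 4) and the RPMS mean 14.4 ± 5.84 CPM (SD, n = 3), which is -3.69 on the log2 scale (SE 0.35) with an edgeR quasi-likelihood adjusted p of 0.00176. Between 259 and 599 Stat3 counts remained in each RPMS library. Which exons these counts fell in was not tested, since the tables sum over the gene. In bulk libraries fewer cells of a type and less RNA per cell cannot be told apart, which holds for every level given here. Without CMV_252 the log2 fold change of Stat3 was -3.40 with an adjusted p of 0.00144.

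Stat6, the IL-4 and IL-13 transducer, was the only other member that passed the test, with an estimated fall larger than that of Stat3 and overlapping intervals. Its RPM values were 222 CPM in CMV_426, 148 in CMV_427, 52.5 in CMV_428 and 101 in CMV_429. Its RPMS values were 3.81 CPM in CMV_228, 12.7 in CMV_231 and 1.03 in CMV_252. The groups did not overlap, and the lowest RPM line, CMV_428, was above the highest RPMS line, CMV_231. The means of 131 ± 72.1 CPM (SD, n = 4) and 5.83 ± 6.07 CPM (SD, n = 3) differed by -4.48 on the log2 scale, with an SE of 0.99, a 95% interval from -6.82 to -2.15 and an edgeR adjusted p of 0.0157. Without CMV_228 the call was lost, at a log2 fold change of -4.25 and an adjusted p of 0.0663. Without CMV_231 it was -5.75 with an adjusted p of 0.0188, and without CMV_252 it stood at -4.0 with an adjusted p of 0.0181. Stat6 took the same order over the RPM lines as the leukocyte sum: CMV_426 was highest in both (222 CPM beside a sum of 17041 CPM), then CMV_427 (148 beside 12072), CMV_429 (101 beside 5519) and CMV_428 (52.5 beside 3846). The part of leukocyte transcripts in the fall of Stat6 was not tested.

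**Figure D1:**
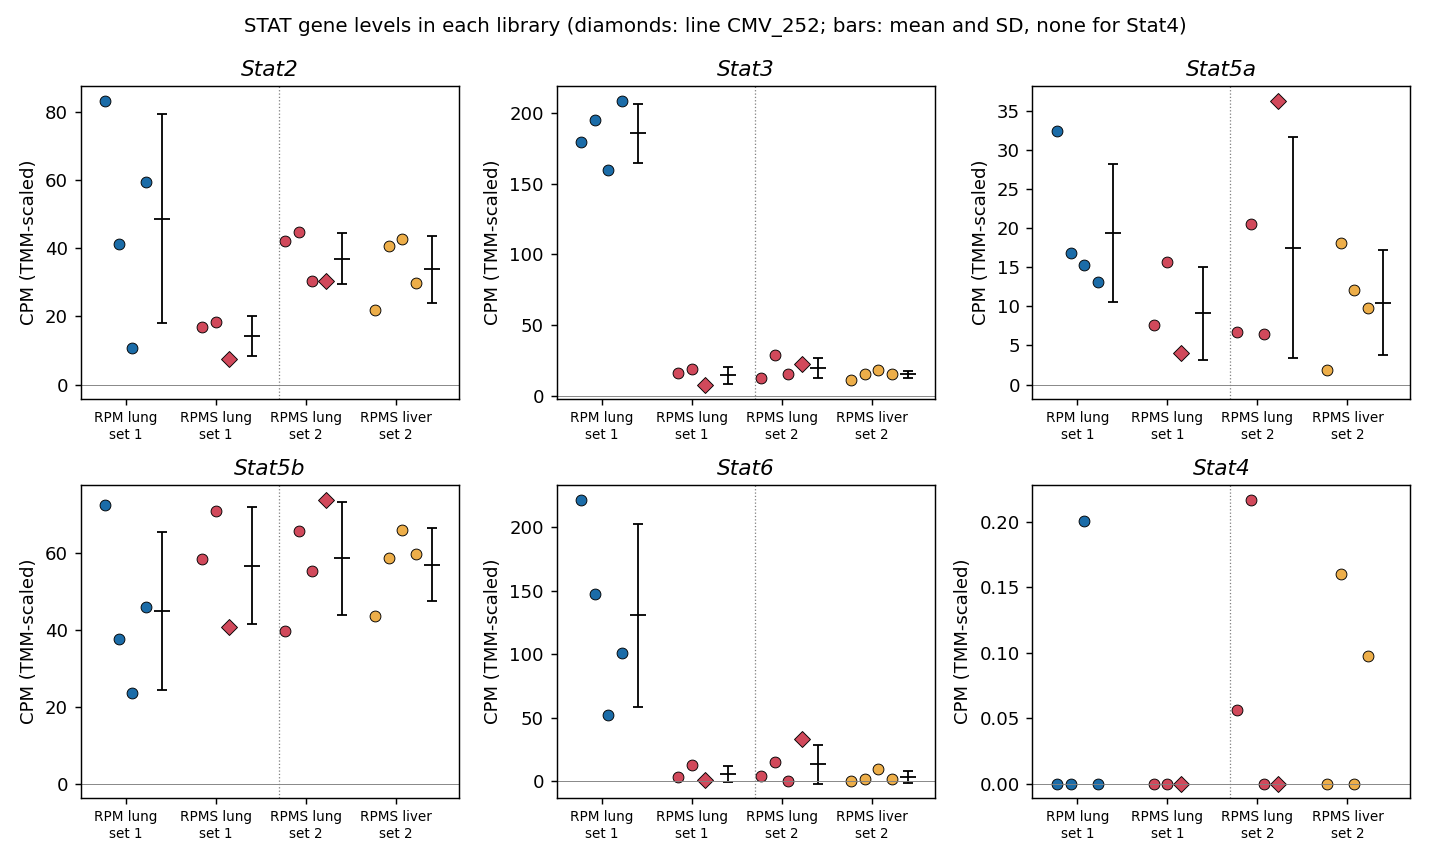
Level of each STAT gene in CPM (vertical axes, linear and different in each panel) in every library, with RPM lung lines in blue, RPMS lung lines in red, RPMS liver lines in yellow, line CMV_252 as a diamond and black bars for the mean and SD (none for Stat4). Stat3 and Stat6 are higher in all 4 RPM lines than in any RPMS line, while Stat5b overlaps across all groups. The dotted line parts set 1 from set 2, which were scaled separately.

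Of the 5 members that could be tested, 2 were called in this contrast, both lower in RPMS. Over all 17654 genes tested, 5403 (30.6%) were called, 2764 of them lower (15.7%) and 2639 higher (14.9%). Without CMV_228 the number called over all genes was 2896, and without CMV_231 it was 3103. Stat3 is the gene whose deletion defines the groups, and with so few members the count does not set the family apart from other genes. The 2 called members also had groups without overlap in CPM, which 43% of all genes tested showed.

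Stat2, the partner of Irf9 in interferon signalling, was spread widely among the RPM lines. Its values were 83.2, 41.1, 10.7 and 59.5 CPM in CMV_426 to CMV_429 and 17.0, 18.4 and 7.55 CPM in CMV_228, CMV_231 and CMV_252. CMV_428 lay within the RPMS range and the other RPM lines lay above it, so the groups overlapped through 1 line. The means were 48.6 ± 30.6 CPM (SD, n = 4) and 14.3 ± 5.91 CPM (SD, n = 3). The log2 fold change was -1.76 (SE 0.69, 95% interval -3.39 to -0.13), and with an edgeR adjusted p of 0.0943 it did not pass. DESeq2 gave -1.78 with an adjusted p of 0.0296, and edgeR without CMV_428 gave -2.10 with an adjusted p of 0.0220, both past the threshold. Without CMV_252 it was -1.47 with an adjusted p of 0.185.

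Stat5a and Stat5b, the paired transducers of growth hormone and IL-2 family signals, did not pass. Stat5a was at 32.4, 16.8, 15.2 and 13.1 CPM in the RPM lines in the same order and at 7.62, 15.7 and 4.05 CPM in the RPMS lines. Its RPMS line CMV_231 lay among the RPM lines, and the other RPMS lines lay below them. The log2 fold change was -1.09 (SE 0.55, 95% interval -2.39 to 0.21, edgeR adjusted p = 0.176), and it ran from -1.73 without CMV_231 to -0.71 without CMV_426. Without CMV_252 it was -0.74.

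Stat5b stood at 72.6, 37.7, 23.5 and 46.1 CPM in the RPM lines and at 58.6, 71.0 and 40.9 CPM in the RPMS lines. The groups overlapped almost fully, and the highest and the lowest value both came from RPM lines. The log2 fold change of 0.34 (SE 0.40) had a 95% interval from -0.60 to 1.28 and an edgeR adjusted p of 0.559, and it was 0.52 without CMV_252. The interval reaches past a doubling, so the p does not show that Stat5b was the same in both genotypes. Stat5a and Stat5b share sequence: 8.21% of the 50-base words of Stat5a transcripts occur in Stat5b and 11% of those of Stat5b occur in Stat5a. Reads from those stretches could be split between the genes by the counting, and no other pair of members shared a word of that length.

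Stat4, the IL-12 transducer of T and NK cells, was near or at 0 counts throughout and was filtered out before both tests. In set 1 it had 5 counts in CMV_428 (0.200 CPM) and 0 counts in the other 6 libraries. In set 2 it had at most 4 counts in a library. A count of 0 allows a level of up to 3 counts. Relative to total counts, without the TMM scaling used elsewhere, that is 0.0957 to 0.118 CPM in set 1 and 0.163 to 0.317 CPM in set 2. Differences below about that level were not detectable at this depth. These limits cover counting error only.

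**Figure D2:**
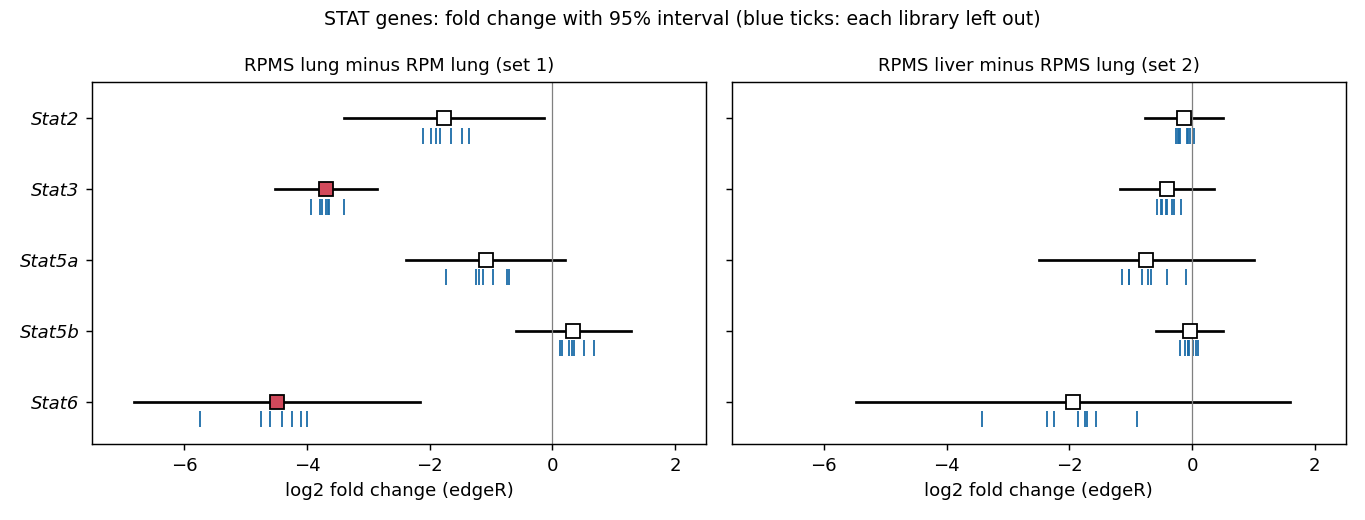
Log2 fold change of each tested STAT gene (squares, filled where the edgeR adjusted p is under 0.05) with its 95% interval (black lines) for RPMS against RPM lung lines and for RPMS liver against RPMS lung lines. Blue ticks give the estimate with each library left out in turn: Stat3 stays between -3.94 and -3.40 and Stat6 between -5.75 and -4.0 in set 1, and no member passes in set 2.

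The genes' order of abundance differed between the RPM and RPMS lines, which also differ in cell make-up. To compare genes, CPM was divided by the kilobases of each gene's exons and expressed as a percent of the sum over the 6 genes in that library. In RPM lines Stat6 took 32.3 to 49.9% and Stat3 took 18.7 to 45.4%, and Stat6 was highest in 3 of 4 lines with Stat3 highest in CMV_428. Their ranges overlapped, so this order is not beyond the spread of the lines. Stat5b took 9.71 to 13.0% and Stat2 4.91 to 15.4% in RPM, and these neighbours overlapped as well, while Stat5a took 2.82 to 5.78%.

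In every one of the 11 RPMS libraries of both tables Stat5b was the most abundant member per kilobase. The lines CMV_228, CMV_231 and CMV_252 are counted there once per table, so the libraries are not all separate lines. Stat5b took 55.7 to 71.8% in RPMS lung lines of set 1, 39.8 to 56.6% in those of set 2 and 47.8 to 60.3% in the liver lines. In CMV_228 of set 2 it was nearly level with Stat2, at 41.1% against 40.6%. Stat2 came next on average, with 12.4 to 16.8% in set 1, 15.3 to 40.6% over the lung lines of set 2 and 26.1 to 31.2% over the liver lines. Stat3 made up 7.09 to 10.4% over all RPMS libraries, and Stat5a and Stat6 overlapped with it. These are shares of a sum, and the CPM of Stat5b itself overlapped between RPM and RPMS. With the longest transcript as length in place of all exons, Stat5b was highest in 10 of 11 RPMS libraries, and Stat2 was highest in CMV_228 of set 2. In RPM lines Stat6 and Stat3 were then highest in 2 lines each.

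**Figure D3:**
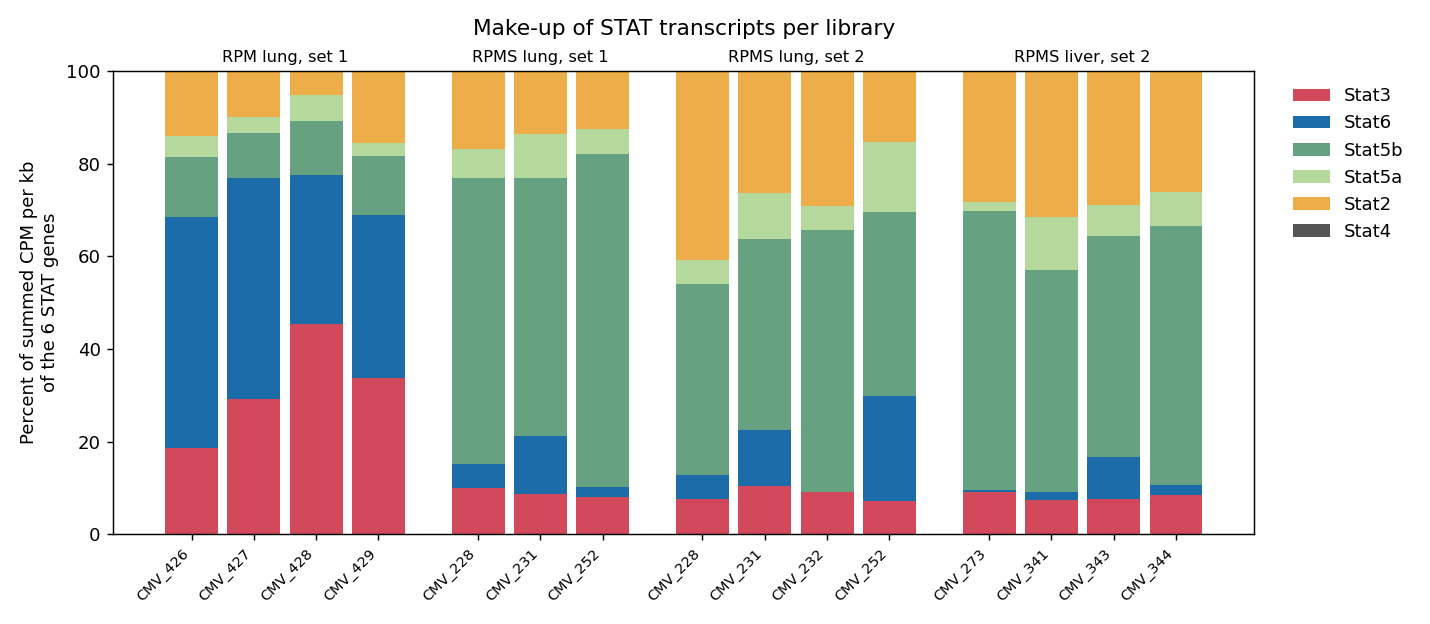
Percent of the summed CPM per kilobase of the 6 STAT genes taken by each gene (vertical axis) in every library (bars). Stat3 and Stat6 make up most of each RPM bar, and Stat5b is the largest piece of each of the 11 RPMS bars, at 39.8 to 71.8%.

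In the liver lines no STAT gene differed from the RPMS lung lines beyond the spread. Stat3 was at 12.7, 28.5, 15.5 and 22.7 CPM in the lung lines CMV_228, CMV_231, CMV_232 and CMV_252 and at 11.2, 15.5, 17.9 and 15.5 CPM in the liver lines CMV_273, CMV_341, CMV_343 and CMV_344. The groups overlapped, and the log2 fold change of liver against lung was -0.40 (SE 0.34, 95% interval -1.17 to 0.37, edgeR adjusted p = 0.945), and -0.32 without CMV_252. Both groups carry STAT3-/-, so this compares only what remains of the transcript.

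Stat6 was spread widely over the lung lines of set 2. It was at 4.01, 15.6, 0 and 33.5 CPM in the lung lines and at 0.271, 1.60, 10.001 and 1.85 CPM in the liver lines. CMV_232 had 0 Stat6 counts and CMV_252 had the highest value, both in the lung group, so that group spanned the whole liver range. The log2 fold change was -1.94 (SE 1.55, 95% interval -5.48 to 1.59, edgeR adjusted p = 0.945), and it was -0.90 without CMV_252 and -3.42 without CMV_343. With limma-voom it was -0.60.

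Stat2 was at 42.0, 44.8, 30.4 and 30.4 CPM in lung lines and 21.9, 40.8, 42.6 and 29.8 CPM in liver lines, and its log2 fold change was -0.13 (95% interval -0.76 to 0.50, edgeR adjusted p = 0.975), or -0.20 without CMV_252. Stat5a was at 6.66, 20.6, 6.47 and 36.3 CPM and at 1.84, 18.1, 12.0 and 9.83 CPM, with a log2 fold change of -0.74 (95% interval -2.49 to 1.01, edgeR adjusted p = 0.950) that was -0.10 without CMV_252. Stat5b was at 39.8, 65.7, 55.4 and 74.0 CPM and at 43.6, 58.7, 66.1 and 59.8 CPM, with a log2 fold change of -0.041 (95% interval -0.59 to 0.51, edgeR adjusted p = 0.992), or 0.098 without CMV_252. All these groups overlapped. Over the whole of set 2 edgeR called 0 of 14441 genes (0%), with 650 genes at an unadjusted p under 0.05 and a lowest adjusted p of 0.0857, while DESeq2 called 52 and limma-voom 0. None of the members had liver and lung groups without overlap, as 2.56% of genes tested did.

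CMV_228, CMV_231 and CMV_252 appear in both tables and show how well a line's STAT levels repeat. The tables were counted and scaled separately, so the values are set side by side without a test. Stat6 repeated closely in CMV_228 (3.81 and 4.01 CPM) and CMV_231 (12.7 and 15.6 CPM). In CMV_252 it was 1.03 CPM in set 1 and 33.5 CPM in set 2, a ratio of 32.6, and Stat5a differed there by a ratio of 8.96. Stat2 was higher in set 2 in every shared line, by a ratio of 2.43 to 4.03. Stat5b was within ratios of 0.679 to 1.81 and Stat3 within 0.778 to 2.90. Whether the libraries labelled CMV_252 are the same cells was not tested.

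**Figure D4:**
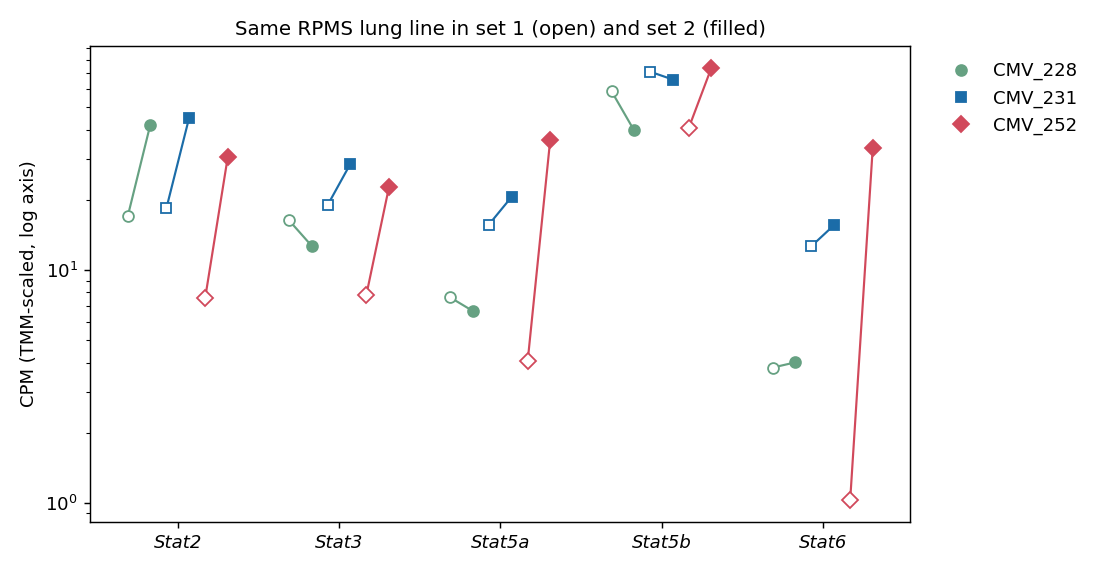
CPM (log axis) of 5 STAT genes in the RPMS lung lines sequenced in both tables, with set 1 as open and set 2 as filled symbols joined by a line. Stat2 is higher in set 2 in all 3 lines, and Stat6 and Stat5a differ most in CMV_252.

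Stat3, Stat5a and Stat5b are neighbours on mouse chromosome 11 (GRCm38, GENCODE annotation). Stat5b lies at chr11:100780731-100850724 on the minus strand, Stat5a at chr11:100859351-100885169 on the plus strand and Stat3 at chr11:100885098-100939540 on the minus strand. The 3′ ends of Stat3 and Stat5a overlap by 72 bases on opposite strands. The libraries were made with a stranded kit, but how strand was used in counting is not given in the sources used here, so reads in those 72 bases may be shared. Stat2 and Stat6 lie on chromosome 10, at chr10:128270559-128292849 and chr10:127642986-127660957, both on the plus strand, and Stat6 overlaps Nab2 by 40 bases on the other strand. Stat4 lies at chr1:51987148-52107189 on the plus strand, where it overlaps the processed transcript Gm28177 by 29929 bases on the same strand and the pseudogene Gm3940 by 432 bases on the other. These overlaps are of whole gene spans, introns included, and the overlap of exons was not measured. How reads in those stretches were assigned is not given in the sources used here, so any effect on the low Stat4 counts is not known.

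Of the 3 nearest protein coding genes on each side of Stat3, only Cavin1 and Naglu were called in set 1, both lower in RPMS. Over all genes tested 30.6% were called, and so few neighbours cannot be read against that share. The part of the cell make-up of the RPM lines in these values was not tested. On the Stat5 side, Ghdc had a log2 fold change of -1.20 (edgeR adjusted p = 0.181). Stat5a was at -1.09 and Stat5b at 0.34, and neither passed. On the other side Cavin1, a coat protein of caveolae, fell from 105 ± 81.4 CPM (SD, n = 4) to 6.90 ± 6.73 CPM (SD, n = 3), by log2 -3.93 (edgeR adjusted p = 0.0252). Naglu, a lysosomal enzyme, fell from 52.9 ± 27.1 to 9.40 ± 4.95 CPM, by log2 -2.49 (edgeR adjusted p = 0.0220). Atp6v0a1, a proton pump subunit that lies between Cavin1 and Naglu, stood at 118 ± 38.2 and 157 ± 65.8 CPM and did not pass (edgeR adjusted p = 0.450).

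Around the STATs, the receptor genes of the pathway were mostly lower in RPMS lung lines of set 1. The counts for kinases and inhibitors, given further below, are not read as results about those lists. Over receptors, kinases, inhibitors and partners together, 29 of 62 genes tested fell and 5 rose, beside 15.7% lower and 14.9% higher over all genes. That is 34 calls in all, 36 without CMV_252, 23 without CMV_228 and 23 without CMV_231. Of 29 receptor genes tested, 19 fell and 2 rose, with a list median log2 fold change of -2.82 against -0.0071 over all genes tested. The fallen receptors include Il10rb, a chain of the IL-10 receptor, at 130 ± 41.3 CPM in RPM against 5.39 ± 0.559 CPM, and Ifngr2, a chain of the interferon gamma receptor, at 112 ± 18.3 and 19.6 ± 4.82 CPM. Osmr, the oncostatin M receptor, spanned 14.7 to 28.2 CPM in RPM but had 0 counts in all 3 RPMS lines, and Il11ra1 was at 16.0 ± 4.89 and 1.15 ± 0.192 CPM. Il6st, the gp130 chain of IL-6 family receptors, was at 250 ± 47.3 and 145 ± 66.4 CPM and did not pass (edgeR adjusted p = 0.109). Several of the fallen receptors, such as Il10ra, Csf2rb and Csf3r, are typical of leukocytes, whose markers fell in the same contrast (17 of 18), and the part of those cells in the receptor counts was not tested.

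The 2 receptors that rose were picked out after their values were seen. Cntfr, the ciliary neurotrophic factor receptor of the IL-6 family, was at 0 counts in all 4 RPM lines and at 36.1, 25.4 and 45.7 CPM in CMV_228, CMV_231 and CMV_252 (edgeR adjusted p = 0.00210). In set 2 it was present in all 8 RPMS libraries, at 6.94 to 236 CPM. Il20ra, a chain of the IL-20 receptor, was at 0.274 CPM in CMV_426, at 0 counts in the other RPM lines and at 12.2, 5.33 and 2.54 CPM in the RPMS lines (edgeR adjusted p = 0.0178).

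Among the 4 Janus kinases, 3 fell, and the list is too small to be read against the 15.7% lower over all genes tested. Jak1 went from 224 ± 31.3 to 75.2 ± 7.73 CPM, or -1.57 on the log2 scale with an SE of 0.18 (edgeR adjusted p = 0.00253), and Tyk2, which serves interferon receptors, from 61.0 ± 18.5 to 11.9 ± 1.60 CPM, or -2.35 with an SE of 0.30 (edgeR adjusted p = 0.00323). Jak3, the kinase of the IL-2 family receptors in lymphoid and myeloid cells, went from 11.7 ± 6.09 to 0.765 ± 0.335 CPM (edgeR adjusted p = 0.00586). Jak2 was at 62.9, 120, 70.9 and 57.6 CPM in the RPM lines and at 30.6, 45.4 and 15.8 CPM in the RPMS lines. Its groups did not overlap, yet its log2 fold change of -1.35 (SE 0.43) had an edgeR adjusted p of 0.0526.

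Of 18 inhibitors 3 fell, 2 rose and 13 did not pass, with a list median of -0.11. The share called is near the 30.6% called over all genes, so the count is no result about the inhibitors. Ptprc and Ptpn6, phosphatases abundant in blood cells, and Sh2b3, an adaptor that restrains Jak2, fell. Ptprc is itself on the leukocyte marker list. Socs7, of the SOCS family of feedback inhibitors, rose from 59.6 ± 16.3 to 269 ± 53.7 CPM, or 2.17 on the log2 scale with an SE of 0.27 (edgeR adjusted p = 0.00306). Ptpn11, the phosphatase SHP-2, rose from 160 to 251 CPM (edgeR adjusted p = 0.0244). Socs3, the feedback inhibitor that Stat3 itself induces, was at 24.7 ± 7.76 and 29.2 ± 1.93 CPM and did not pass (edgeR adjusted p = 0.589). Among 11 STAT partners tested 4 fell and 1 rose, beside 15.7% lower and 14.9% higher over all genes tested, and so short a list cannot be read against those shares. The fallen partners include Irf9, which went from 55.0 ± 20.1 to 10.3 ± 1.73 CPM (log2 fold change -2.41, edgeR adjusted p = 0.00467), and Nmi, which went from 19.7 ± 6.79 to 2.64 ± 0.551 CPM. The coactivator Ncoa1 rose from 46.2 ± 10.8 to 96.9 ± 13.2 CPM. The list median of the partners was -0.50.

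Genes known as STAT targets were counted by the STAT they are best known for, and some, such as Bcl6 and Irf9, stand on more than 1 list. The Stat2 list, interferon-stimulated genes, had 16 of 20 tested members lower and 0 higher, with a list median of -5.85, where 15.7% of all genes tested were lower. The leukocyte markers fell in the same contrast (17 of 18, list median -11.2 with genes at 0 counts at their bound), and their part in the counts of the target lists was not tested. On the Stat2 list Ifit3, an antiviral effector, was at 35.6 ± 24.6 and 0.228 ± 0.130 CPM, and Oas1a, an antiviral RNA sensor, was at 88.1 ± 56.8 CPM in RPM but had 0 counts in RPMS. The Stat3 list had 13 of 22 lower and 1 higher, with a list median of -3.33. Icam1, an adhesion molecule, was at 90.8 ± 40.5 and 0.183 ± 0.162 CPM, Bcl6, a transcriptional repressor, at 42.0 ± 8.45 and 0.457 ± 0.469 CPM, and the only riser was Birc5, the apoptosis inhibitor survivin, at 39.5 and 105 CPM (edgeR adjusted p = 0.0131).

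The Stat5 list had 3 of 11 tested members lower and 0 higher with a median of -0.33, a share called near the 30.6% over all genes. Igf1, the growth hormone-induced growth factor, was among them at 214 ± 130 and 3.11 ± 2.90 CPM. The Stat6 list had 3 of 7 tested members lower and 0 higher. Its median was -4.43, or -3.21 with the gene that had 0 counts in a group set at its bound against 3 counts per library. Its fallen members were Mrc1, the macrophage mannose receptor, Pparg and Il4ra, and Mrc1 is also on the leukocyte list. The Stat4 list had 4 of 5 tested members lower and 0 higher, with Stat4 itself at or near 0 counts in both groups. The Stat4 and Stat6 lists hold too few tested genes to be read against the 15.7% lower over all genes. In set 2 edgeR called no gene of any of these lists in liver against lung lines.

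**Figure D5:**
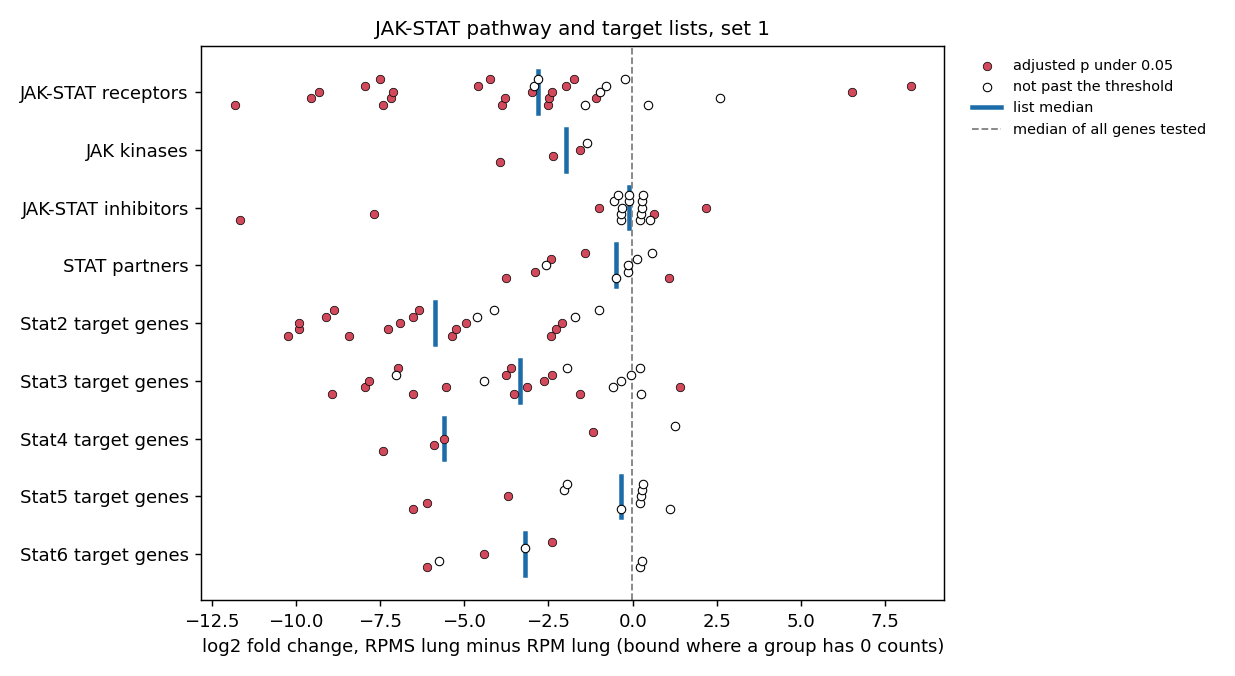
Log2 fold change of RPMS against RPM lung lines (horizontal axis) for each tested gene of the pathway and target lists, with filled points past an edgeR adjusted p of 0.05, blue bars for list medians and a dashed line for the median of all genes tested. Genes at 0 counts in a group are drawn at their bound against 3 counts per library. List medians are lowest for Stat2 (-5.85) and Stat4 targets (-5.61), then Stat3 (-3.33) and Stat6 targets (-3.21), receptors (-2.82) and kinases (-1.96). Those of partners (-0.50), Stat5 targets (-0.33) and inhibitors (-0.11) lie nearer the dashed line. The kinase, partner, Stat4 and Stat6 lists are too short to be read against all genes.

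The genes most like each member were found by the smaller of the correlations of log2 CPM over the 7 libraries of set 1 and the 8 of set 2, among 12686 genes. They were Gsdmd (0.886) and Atg2a (0.880) for Stat3, Acox3 (0.923) and Nans (0.919) for Stat6, and Mgrn1 (0.827) and Gsap (0.810) for Stat2. For Stat5a they were Gnai2 (0.944) and Nat6 (0.919), and for Stat5b Fam219b (0.906) and Smarcal1 (0.842). Among members, Stat3 and Stat6 had r = 0.961 in set 1 and 0.690 in set 2, while Stat3 and Stat5b had -0.281 and 0.821. These values describe libraries that share the genotype split of set 1 and 3 line names, and carry no test.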

How the data were processed

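Bulk RNA-seq counts per gene of 15 libraries from 12 named lines were deposited in 2 tables. Per the submitters' processing notes, HISAT2, StringTie and GRCm38 were used, and per the labels' protocols a stranded library kit. The deposited values are whole-number counts, not normalized, and versions, annotation and strand setting are not given in the sources used here. In set 2, 1832 rows without a gene name (0.0569 to 0.0800% of counts) were left out of library sizes and tests. Total counts per library were 9453715 to 31345631. The members and gene lists were chosen with earlier results of these data known.

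Each table was fitted alone with edgeR 4.0.16 (filterByExpr by group, TMM, quasi-likelihood test, two-sided, Benjamini-Hochberg over all genes tested, threshold 0.05) in R 4.3.3. Exon lengths came from the GENCODE annotation of GRCm38. Alternatives were DESeq2 1.42.0, limma-voom (limma 3.58.1), other scalings, other filters, a robust fit and leaving out each library. No pair of libraries agreed within sampling noise (chi-square per gene at least 44.2 over 21 and 28 pairs). The tests were also run on simulated counts with 200 changed genes and the same dispersion for every gene. That setting differs from these data, so it does not show how the tests perform here. Named genes were the members, up to 4 called genes per list with the smallest p, Jak1, Jak2, Tyk2, Socs3, Il6st and Irf9, the 3 genes on each side of Stat3 and the 2 most like each member. Genes named outside this rule were chosen after their values were seen. These are Cntfr, Il20ra, Ptpn11, Birc5, Il10ra, Csf2rb, Csf3r, Lyz2, Csf1r, Trf, Alb, Ttr and Tat.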

Additional observations from a re-analysis of the deposited data

Results flagged for a closer look

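Within 17 gene-and-group sets of 4 libraries, 2 held a library that stood far from the other 3. Chance flags about 1 in 20 such sets only where values follow a normal distribution, which counts near 0 need not do. A set with 1 library above 0 counts, as for Stat4, is always flagged. Stat4 was at 0.200 CPM (5 counts) in the RPM line CMV_428 and at 0 counts in the other 3 RPM lines. Stat6 was at 10.001 CPM in the liver line CMV_343, against 0.271 to 1.85 CPM in the other 3 liver lines. Without CMV_343 the log2 fold change of Stat6 in liver against lung was -3.42 in place of -1.94, and it was not called.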

How the results depend on the processing

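Of 155 refitted log2 fold changes of members, 147 kept their direction and side of the threshold. In RPMS against RPM, Stat2 passed with DESeq2 (-1.78) and ran from -2.10 to -1.36 with a library left out, and Stat6 ran from -5.75 to -4.0, losing its call without CMV_228. In liver against lung Stat5b turned to 0.10 with total counts as scaling, which moves the median of all genes by 0.13, and ran from -0.20 to 0.098 with a library left out; Stat2 ran from -0.26 to 0.025. The cause was not tested. With a library left out, genes called in RPMS against RPM ran from 2896 (without CMV_228) to 7076 (without CMV_252), and were 3103 without CMV_231. DESeq2 called 7262. In liver against lung DESeq2 called 52 genes and the fit with no filter called 2. Total counts moved the median of all genes by 0.12 in RPMS against RPM. Using the longest transcript as length moved 8 of 24 mean shares by more than 1 SD. No paired analysis was possible because the groups compared within a table share no line number. Depth limits Stat4 in both tables, and Stat6 in CMV_232.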

Other observations

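Jak2, the kinase of growth hormone and gp130 receptors, was at 25.3 CPM in CMV_228, 33.4 in CMV_231, 27.7 in CMV_232 and 17.1 in CMV_252 among the lung lines of set 2 and at 51.4, 37.0, 37.6 and 40.9 CPM in the liver lines CMV_273, CMV_341, CMV_343 and CMV_344. The groups did not overlap, as for 2.56% of all genes tested there. The log2 fold change was 0.69 (SE 0.26), with an unadjusted p of 0.0266 and an edgeR adjusted p of 0.945, so it failed the correction over all genes.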
